A study of Arabidopsis thaliana with 60 samples.

Results

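A set of 79 genes of Arabidopsis roots, out of 32833 genes counted, was raised late after auxin. Their group means at 6 h were lower under dexamethasone, which lets a stabilised Aux/IAA repressor made by the plants into the nucleus. The set was chosen from measured values in both transgenic lines of the study. Values were counts per 1000000 gene counts of a library (CPM), and the scale was log2 of the group mean CPM plus 1. Under the solvent dimethyl sulfoxide (DMSO) a gene had to change by less than 1 between 0 and 1 h of auxin and by at least 1.5 between 0 and 6 h, and to reach a mean of at least 5 CPM at 6 h. At 6 h its mean under dexamethasone (DEX) had to lie at least 1 below that under DMSO, a difference of -1 or less. The limit of 200 genes set by the rule was not reached. These conditions fix the late rise under DMSO and the lower level under DEX at 6 h, so both are given as descriptions without a test. The 2 h and 4 h libraries and the DEX libraries of 0 h took no part in the choice and carry the tests. In each line, however, the libraries of 2 and 4 h shared a sequencing run with those of 6 h of the same treatment. Tests of DEX against DMSO at 2 and 4 h are thus not fully independent of the choice.

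Stabilised IAA3 is carried by pGATA23::shy2-2-GR (called shy2-2 for short), and stabilised IAA14 by pGATA23::slr-1-GR (called slr-1). Both fusions hold the glucocorticoid receptor domain (GR) and are driven by the promoter of GATA23, which is active in the pericycle cells that found lateral roots. Seedlings of 4 days were kept for 22 h on 10 µM NPA, an inhibitor of auxin transport, then for 2 h on NPA with 10 µM DEX or DMSO, and then received 10 µM of the auxin IAA with the same DEX or DMSO for 0, 1, 2, 4 or 6 h. This gives 20 groups of 3 libraries each, 10 per line. Every library came from about 200 pooled segments of the lower part of the roots. All groups carry a transgene and were treated with NPA. Untransformed seedlings given DEX and seedlings kept without IAA over time were not analysed here. Effects of DEX itself or of time alone thus cannot be told apart from those of the fusions or of IAA. In such bulk samples fewer cells of a type and less RNA per cell cannot be told apart.

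Aux/IAA proteins hold auxin response factors inactive until auxin triggers their degradation, and the stabilised forms escape that degradation. The GR domain keeps a fusion in the cytoplasm until DEX is given. Auxin makes pericycle founder cells divide, and the primordium then grows out through endodermis, cortex and epidermis, whose walls have to loosen and separate. IAA14 and IAA3 are known as regulators of successive steps of lateral root formation. Genes that rise hours after auxin can be direct targets or can follow from earlier events in these or in overlying cells.

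Library totals ran from 12146529 to 94077078 counts, with medians of 42975836 in shy2-2 and 39734826 in slr-1. The native GATA23 gene, one of the genes by which such a block is usually read, had 0.173 ± 0.052 CPM under DEX and 15 ± 2.2 CPM under DMSO at 4 h in shy2-2, and 0.582 ± 0.165 CPM under DEX and 27.7 ± 4.1 CPM under DMSO in slr-1 (SD, n = 3). GATA23 differed already at 0 h, before auxin. It then had 0.031 ± 0.027 CPM under DEX and 0.37 ± 0.10 CPM under DMSO in shy2-2 (SD, n = 3). In slr-1 it had 0.022 ± 0.024 CPM under DEX and 0.777 ± 0.14 CPM under DMSO. The promoter of this gene also drives both fusions. File names placed the libraries in 5 sequencing runs. At 0, 2, 4 and 6 h in both lines, and at 1 h in slr-1, the DEX and DMSO libraries of a line came from different runs. Treatment and run cannot be told apart there. The DMSO libraries of 2, 4 and 6 h of a line shared a run, as did the DEX libraries of those times. In slr-1 the DMSO libraries of 0 h came from another run than the later ones, so time since 0 h and run cannot be told apart. In shy2-2 the DMSO libraries of 1 h came from another run than the other DMSO libraries. In 7 libraries the summed level of 13 photosynthesis genes was 1739 to 5229 CPM, against 93.8 to 1113 CPM in the other 53. These were 1 DEX library of 0 h, 1 DEX library of 4 h and 1 DMSO library of 2 h in shy2-2, and 2 DEX libraries of 0 h and 2 DMSO libraries of 2 h in slr-1. Counts that move without them are given beside the results. Root markers were present in every library, at summed levels of 297.8 to 741.9 CPM for 10 endodermis genes and 84.9 to 195.8 CPM for 8 xylem genes.

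Promoters of 78 members, the 250 bases before the annotated gene start, were found in RefSeq TAIR10.1. They were searched on both strands for the auxin response element TGTCTC, to which auxin response factors bind, and for its variant TGTCGG. The first stood in 12 of the 78 windows (15.4%) and in 10.8% of the 21097 promoters of all tested genes. TGTCGG stood in 5 windows (6.41%), against 4.53% of all, and either element in 16 (20.5%), against 14.9%. The 4 windows printed here were picked because they hold one of these elements, shown in capitals, and belong to genes on which the results below turn. Other such genes, among them AT2G15590, AT5G17340, UMAMIT15, EXL3 and AT3G11150, hold neither element in their windows. The gene strand is written 5′ to 3′.
AIL7, chr5:26185343-26185592, + strand: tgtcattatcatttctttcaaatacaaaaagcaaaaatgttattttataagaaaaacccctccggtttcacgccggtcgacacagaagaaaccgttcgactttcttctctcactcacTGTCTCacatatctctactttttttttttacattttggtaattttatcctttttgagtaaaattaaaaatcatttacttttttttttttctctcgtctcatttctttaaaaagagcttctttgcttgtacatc
AT4G13710, chr4:7962178-7962427, + strand: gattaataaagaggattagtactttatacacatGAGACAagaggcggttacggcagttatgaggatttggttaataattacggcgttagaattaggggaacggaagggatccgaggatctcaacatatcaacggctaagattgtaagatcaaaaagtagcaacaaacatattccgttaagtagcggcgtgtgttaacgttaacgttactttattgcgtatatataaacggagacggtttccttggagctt
RBK2, chr3:1438540-1438789, - strand: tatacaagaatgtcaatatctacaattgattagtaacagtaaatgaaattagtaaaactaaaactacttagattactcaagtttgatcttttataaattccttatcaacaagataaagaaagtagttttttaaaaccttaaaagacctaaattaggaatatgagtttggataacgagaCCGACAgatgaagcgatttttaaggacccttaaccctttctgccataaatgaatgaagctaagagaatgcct
AT3G04650, chr3:1261607-1261856, + strand: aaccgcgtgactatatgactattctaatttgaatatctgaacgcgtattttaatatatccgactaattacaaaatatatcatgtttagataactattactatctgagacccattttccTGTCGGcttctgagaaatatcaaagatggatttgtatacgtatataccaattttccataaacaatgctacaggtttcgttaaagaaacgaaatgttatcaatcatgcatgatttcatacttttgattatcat
AIL7 and AT4G13710 hold TGTCTC, read on the opposite strand as GAGACA in AT4G13710. RBK2 and AT3G04650 hold TGTCGG, read on the opposite strand as CCGACA in RBK2. Of other short motifs searched on both strands, the LOB-domain motif GCGGCG stood in 2.56% of the members' windows and 1.62% of all, the GCC box GCCGCC in 3.85% and 1.94%, the G-box CACGTG in 3.85% and 7.19%, the W-box TTGACC in 8.97% and 12.3%, and TATAAA in 55.1% and 46.5%. A match of letters is a description and shows no binding.

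The members lay on all 5 chromosomes, with 16, 17, 18, 14 and 14 of them on chromosomes 1 to 5. Of the 79, 36 carry a gene symbol, and the others are named by their locus. ETT and AT2G33850 on chromosome 2, and AT4G13690 and AT4G13710 on chromosome 4, were separated by 1 gene each. The conditions on the rise and on the level at 6 h left 633 genes in shy2-2 and 697 in slr-1. Without an early rise there were 305 and 366 of them, and with the DEX condition 116 and 203. All 79 genes that met the conditions in both lines passed the filter on low counts and were tested. The number chosen depended on single libraries of 6 h in shy2-2: it was 126 without DEX replicate 2 and 50 without DMSO replicate 2.

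As a description of what the rule selected, the median change under DMSO between 0 and 6 h was 2.57 in shy2-2 and 2.68 in slr-1 on the log2(mean CPM + 1) scale. In slr-1 the DMSO libraries of 0 and 6 h came from different runs. The median difference of DEX minus DMSO at 6 h was -1.51 and -1.74. The mean level at 6 h under DMSO ran from 5.14 to 1122 CPM in shy2-2 and from 5.72 to 985.5 CPM in slr-1. Close to the limit on the rise, MYB88 had 1.57 in shy2-2 and was taken, while PUB29 had 1.497 and was not. Close to the limit on the DEX difference, AT1G77855 had -1.01 in shy2-2 and was taken, and FAR1 had -0.9971 and was not. FAR1, a fatty acyl reductase of suberin synthesis, would otherwise have met every condition.

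The 79 members were of 2 kinds at 6 h. In 56 of them every DEX library lay below every DMSO library in both lines. In the other 23 the libraries of both treatments overlapped in at least 1 line. By line, every DEX library lay below every DMSO library in 58 members in shy2-2 and 57 in slr-1, where 15% and 20.6% of all tested genes did so. Since the rule used these libraries, nothing is read from those counts. Whether libraries overlap depends on their spread, so the split is close to one by spread and is used here only as a description. The SD between replicates on the log2(CPM + 1) scale had a median of 0.254 in the 56 (range 0.0995 to 0.646) and of 0.832 in the 23 (range 0.574 to 1.30).

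In the libraries of 4 h, which the rule did not use, DEX was compared with DMSO at 4 h by edgeR's quasi-likelihood test with Benjamini-Hochberg adjustment over all genes, and a gene was called where the adjusted p was under 0.05. In shy2-2, 39 of the 79 members were lower under DEX, at a median log2 fold of -0.95, where 8.38% of all tested genes were lower and the median of all genes was 0.01. In slr-1, 53 members were lower at a median of -1.34, where 12% of all genes were lower and the median of all was 0.04. No member was higher. The libraries of 4 h shared their runs with those of 6 h of the same treatment. A share of lower members above that of all genes thus follows in part from the choice. The 39 of shy2-2 were among the 53 of slr-1. All called members belonged to the 56 that were apart at 6 h, with medians of -1.13 in shy2-2 and -1.46 in slr-1, and none of the 23 others passed in either line, at medians of -0.29 and -0.35. With the wide spread by which the 23 were set apart, this lack of calls does not show that they did not differ. Every DEX library lay below every DMSO library at 4 h in 41 members in shy2-2 and 52 in slr-1, against 15.9% and 16.9% of all tested genes. Without the libraries high in photosynthesis RNA, of which 1 is a DEX library of 4 h, 31 members in shy2-2 were called. None of the slr-1 libraries of 4 h was among those 7.

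**Figure D1:**
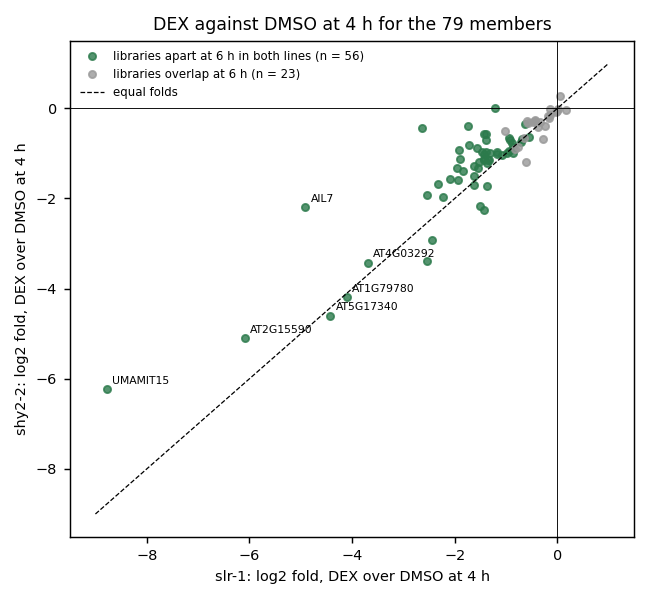
Log2 fold of DEX over DMSO at 4 h for the 79 members, slr-1 on the x axis and shy2-2 on the y axis, each point 1 gene fitted from 3 libraries per group. Green points are the 56 members with DEX and DMSO libraries apart at 6 h in both lines, grey points the 23 others, which gather near 0. AIL7 lies above the dashed line of equal folds, and the fitted fold of UMAMIT15 rests on 2 and 1 DEX counts.

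The members with the clearest role in lateral root formation are transcription factors. AIL7 (AT5G65510, also PLETHORA7, chromosome 5, 26185593 to 26189571), an AP2-type factor of lateral root primordia, had 0.388, 0.280 and 0.294 CPM under DEX at 4 h in shy2-2, against 1.80, 1.19 and 1.26 CPM under DMSO. In slr-1 it had 0.425, 0.394 and 0.303 CPM under DEX and 12.1, 10.2 and 10.8 CPM under DMSO. The libraries of the 2 treatments did not overlap in either line. Before auxin AIL7 had 0.0497 to 0.255 CPM under DEX in shy2-2 and 0.0905 to 0.389 CPM in slr-1. The log2 fold was -2.19 ± 0.33 (SE, adjusted p = 7e-05, edgeR) in shy2-2 and -4.91 ± 0.28 (adjusted p = 1e-11) in slr-1. At 6 h AIL7 had 0.457, 0.114 and 0.411 CPM under DEX and 5.74, 6.53 and 7.01 CPM under DMSO in shy2-2, and 0.219, 0.342 and 0.150 CPM under DEX and 21.6, 20.14 and 18.4 CPM under DMSO in slr-1.

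MYB88 (AT2G02820, chromosome 2, 803656 to 807895), a MYB factor and the close relative of FLP, was expressed before auxin and stayed at 16.2 to 18.3 CPM under DMSO at 2 h in shy2-2. At 4 h it had 23.5, 19.5 and 21.7 CPM under DEX and 39.5, 33.5 and 32.9 CPM under DMSO in shy2-2, and 27.9, 23.1 and 25.4 CPM under DEX and 43.2, 43.1 and 35.7 CPM under DMSO in slr-1. The groups were apart in both lines, by -0.74 ± 0.13 (adjusted p = 0.00046) and -0.70 ± 0.12 (adjusted p = 7.7e-05). ETT (AT2G33860, chromosome 2, 14325206 to 14328978), the auxin response factor ARF3, gave -0.76 ± 0.16 (adjusted p = 0.0025) and -0.89 ± 0.18 (adjusted p = 0.00073). ERF9, an ERF-type factor, and AT2G33620, an AT-hook protein, were lower under DEX in both lines as well. WRKY43 was the 1 factor of 6 that did not pass, at -0.65 ± 0.84 and -0.64 ± 0.76.

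RBK2 (AT3G05140, chromosome 3, 1435617 to 1438539) encodes a kinase that binds ROP GTPases, the switches of polar growth. It had 0.854, 0.788 and 0.724 CPM under DEX at 4 h in shy2-2, against 3.31, 3.58 and 2.18 CPM under DMSO. In slr-1 the values were 1.89, 2.14 and 1.85 CPM under DEX and 12.03, 7.38 and 7.67 CPM under DMSO. The folds were -1.96 ± 0.23 (adjusted p = 4.2e-06) and -2.23 ± 0.30 (adjusted p = 5.2e-06). Of the 7 members with roles in signalling, trafficking and plasmodesmata, 6 were lower under DEX in both lines. The others were the protein kinase AT3G01490, the RING/U-box protein AT1G30860, RABA5b (a RAB GTPase of membrane traffic), PDLP8 (a protein of plasmodesmata, the channels between plant cells) and HLS1 (known for the apical hook). The kinase-related protein AT3G22060 did not pass in either line, at -0.04 ± 0.41 and 0.16 ± 0.50.

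Cell wall genes formed the largest group with a named role, 16 members, of which 7 in shy2-2 and 11 in slr-1 were lower under DEX at 4 h. The largest of these differences was that of AT4G13710 (chromosome 4, 7962428 to 7966521), a pectin lyase-like protein. It had 8.58, 8.69 and 4.54 CPM under DEX and 61.7, 63.7 and 38.1 CPM under DMSO in shy2-2, and 15.7, 11.1 and 14.2 CPM under DEX and 87.3, 66.8 and 64.4 CPM under DMSO in slr-1. The folds were -2.93 ± 0.42 (adjusted p = 4.2e-05) and -2.44 ± 0.36 (adjusted p = 2.5e-05). EXPA20 (AT4G38210), an expansin of the family that loosens walls, had 10.1, 10.6 and 7.35 CPM under DEX and 20.01, 22.8 and 17.9 CPM under DMSO in shy2-2, and 10.6, 11.3 and 9.51 CPM under DEX and 28.2, 26.1 and 24.6 CPM under DMSO in slr-1. The EXORDIUM-like genes EXL3 and EXL5, TBL36 (of a family that acetylates wall polymers) and the pectin lyase-like gene AT1G04680 were lower in both lines too. SKS1, a relative of the root growth protein SKU5, passed in slr-1 only (-1.73 ± 0.30, adjusted p = 0.00014, against -0.81 ± 0.32, adjusted p = 0.12 in shy2-2).

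PGAZAT (AT2G41850), the polygalacturonase ADPG2 that takes pectin apart where cells separate, had 10.0, 7.31 and 6.29 CPM under DEX at 4 h in shy2-2, against 23.2, 25.5 and 9.56 CPM under DMSO. In slr-1 it had 8.997, 11.2 and 5.92 CPM under DEX and 41.7, 15.1 and 18.2 CPM under DMSO. The groups overlapped in shy2-2, where 1 DEX library lay above the lowest DMSO library, and were apart in slr-1. The fold passed in slr-1 (-1.55 ± 0.49, adjusted p = 0.029) and not in shy2-2 (-1.33 ± 0.68, adjusted p = 0.26). PGAZAT was at or below 0.764 CPM in every library of 0 h, and under DEX it still reached 13.4 to 23.2 CPM in shy2-2 and 16.8 to 18.2 CPM in slr-1 at 6 h. Between 0 and 4 h under DEX it rose in both lines (adjusted p = 0.0014 and 6e-06, edgeR). AT1G30760, a berberine-bridge type oxidase, and AT5G22430, an extensin-family protein, also kept a rise under DEX between 0 and 4 h in both lines.

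All 6 members with roles in division and the cytoskeleton were lower under DEX at 4 h in slr-1, and 2 of them in shy2-2. CYCD3;1 (AT4G34160), a D-type cyclin that drives entry into S phase, had 22.98, 20.7 and 15.04 CPM under DEX and 35.2, 31.9 and 24.4 CPM under DMSO in shy2-2 (-0.66 ± 0.30, adjusted p = 0.19). In slr-1 it had 23.4, 23.5 and 24.1 CPM under DEX and 55.8, 41.8 and 35.9 CPM under DMSO (-0.94 ± 0.25, adjusted p = 0.0085). CYC3B, a mitotic cyclin, and MAP65-4, which bundles microtubules of the division apparatus, passed in slr-1 alone, at -0.62 ± 0.21 (adjusted p = 0.043) and -0.86 ± 0.22 (adjusted p = 0.0067), while in shy2-2 they stood at -0.35 ± 0.25 (adjusted p = 0.44) and -0.86 ± 0.33 (adjusted p = 0.11). The formin AT3G07540, of a family that nucleates actin filaments, and the filament-like protein AT4G36120 were lower in both lines.

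**Figure D2:**
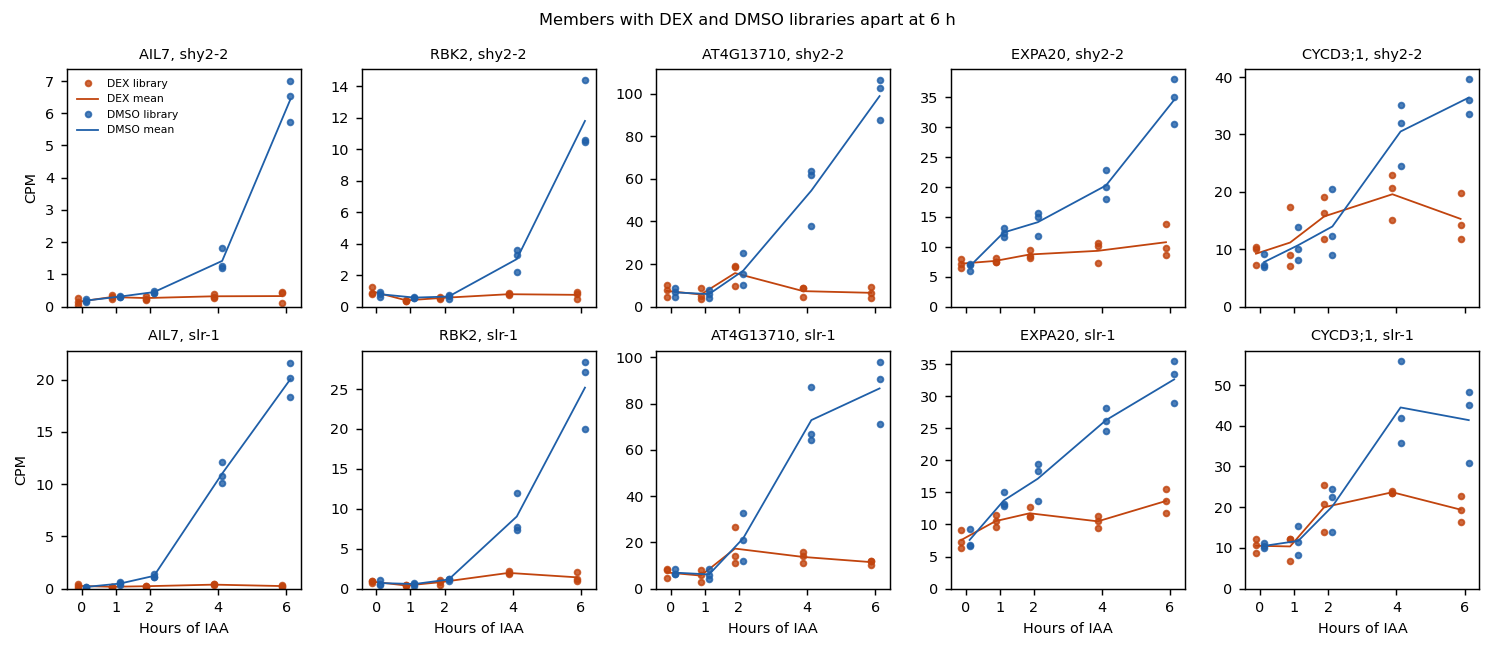
CPM over hours of IAA for 5 members whose DEX and DMSO libraries were apart at 6 h, shy2-2 above and slr-1 below, with orange DEX points and blue DMSO points for single libraries and lines through the means of 3. DMSO values of AIL7, RBK2 and AT4G13710 are higher at 4 h than at 2 h, while DEX values of AIL7 stay below 0.5 CPM and those of CYCD3;1 still climb to 4 h.

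UMAMIT15 (AT5G13670, chromosome 5, 4407077 to 4409020), of a family of amino acid transporters, was the member closest to silence under DEX. At 4 h it had 0, 0 and 0.0452 CPM under DEX and 1.83, 1.32 and 1.04 CPM under DMSO in shy2-2, which is 2 against 198 counts. In slr-1 it had 0.0386, 0 and 0 CPM under DEX and 5.85, 5.26 and 5.18 CPM under DMSO, 1 against 664 counts. The ratio of pooled CPM, DEX over DMSO, was 0.0114 (exact binomial 95% interval 0.00137 to 0.0416) in shy2-2 and 0.00174 (4.4e-05 to 0.00974) in slr-1, intervals that cover counting error only. Among the 10 members of transport and metabolism, 5 in shy2-2 and 7 in slr-1 were lower under DEX at 4 h. They include UPP (of uracil salvage), TOM20-1 (a mitochondrial import receptor), AT3G04650 (an oxidoreductase) and AT3G11150 (a 2-oxoglutarate-dependent oxygenase), each in both lines. The ADP/ATP carrier AAC2 passed in slr-1 (-0.93 ± 0.27, adjusted p = 0.016) and not in shy2-2 (-0.95 ± 0.35, adjusted p = 0.087).

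Among the 21 members without a role in these groups, 13 in shy2-2 and 17 in slr-1 were lower under DEX. AT2G15590, a DUF1685 protein, had 0.155, 0.0526 and 0.181 CPM under DEX at 4 h and 5.02, 4.15 and 3.35 CPM under DMSO in shy2-2, and 0.425, 0.172 and 0.152 CPM under DEX and 17.1, 15.5 and 14.5 CPM under DMSO in slr-1. Its folds were -5.10 ± 0.36 (adjusted p = 1.9e-09) and -6.09 ± 0.27 (adjusted p = 1.5e-13). AT5G17340 (a putative membrane lipoprotein), AT4G03292 (a ribonuclease H-like protein) and AT2G03740 (of a late embryogenesis abundant family) had log2 folds of -4.60, -3.43 and -3.4 in shy2-2 and of -4.42, -3.69 and -2.54 in slr-1, all called. CSDP1, a cold shock domain protein that binds RNA, was lower with smaller errors (-1.28 ± 0.14 and -1.62 ± 0.13).

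Genes of suberin, cutin and lignin make the water-repellent and lignified layers of root walls. Of 13 members in that group, 1 was lower under DEX at 4 h in each line, the UPF0497 family protein AT1G79780 (-4.18 ± 0.43 and -4.10 ± 0.51). AT1G79780 and the lipid transfer protein AT4G15160 were also the only ones of the group whose libraries were apart at 6 h in both lines. The others include ABCG6 and ABCG20 (transporters of suberin monomers), CYP86A2, CYP86A4 and GPAT6 (enzymes of cutin synthesis), the laccases LAC5 and LAC13, the peroxidase AT1G68850 and HCD1 (annotated as a hydroxyacyl-CoA dehydratase). ABCG20 (AT3G53510, chromosome 3, 19837148 to 19839983) had 29.5, 172 and 16.0 CPM under DEX at 6 h in shy2-2, against 125, 288 and 77.9 CPM under DMSO. In slr-1 it had 7.40, 45.3 and 66.7 CPM under DEX and 212, 164 and 33.0 CPM under DMSO. In shy2-2 1 DEX library, and in slr-1 2, lay above the lowest DMSO library.

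At 4 h ABCG20 had 25.6, 58.0 and 2.53 CPM under DEX and 27.6, 73.1 and 6.61 CPM under DMSO in shy2-2, and 13.1, 62.9 and 35.7 CPM under DEX and 117, 13.7 and 31.7 CPM under DMSO in slr-1. The folds of -0.32 ± 1.00 (adjusted p = 0.9) and -0.58 ± 0.84 (adjusted p = 0.72) were smaller than their errors. GPAT6 gave -0.06 ± 0.97 and 0.00 ± 0.66, LAC5 -0.21 ± 1.17 and -0.16 ± 0.74, and CYP86A4 -0.51 ± 0.68 and -1.01 ± 0.61, none of which passed. Errors of this size do not show that DEX left these genes alone. CYP86A2 had the highest fold of all members in shy2-2, 0.28 ± 0.63.

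Levels of this group were set beside those of related genes in the same libraries. The summed CPM of 26 further genes of a suberin and cuticle list, none of them a member, was 981.1, 1316 and 392.8 under DEX and 1102, 1493 and 513.6 under DMSO at 4 h in shy2-2, and 628.7, 1202 and 927 under DEX and 2067, 847.9 and 987.2 under DMSO in slr-1. At 6 h it was 752.7, 1931 and 548.5 under DEX and 1416, 2686 and 1450 under DMSO in shy2-2, and 402, 837.3 and 1089 under DEX and 2475, 2102 and 878.8 under DMSO in slr-1. Of the 26 genes, 5 stayed under 0.5 CPM in every library. Over the 60 libraries, the deviations of a member from its group mean were correlated with those of this sum at a median Pearson's r of 0.893 in the 23 overlapping members and of 0.615 in the 56 others. The r was above 0.8 in 19 of the 23 and in 7 of the 56. In the suberin, cutin and lignin group it was above 0.8 in 10 of 13 members, with CYP86A2 (0.499) and AT1G79780 (0.481) lowest. These points share library, depth and tissue sampling, so r is a description. ASN1 and SEN1 stand in no gene list used here, were chosen after values were seen, and ran the other way. How many of all genes have such an r was not counted. ASN1, an asparagine synthetase known to be induced by darkness and low sugar, had an r of -0.90 with the sum, and SEN1, another gene induced by darkness, of -0.885. At 6 h ASN1 had 182.6, 51.6 and 189.2 CPM under DEX and 163, 43.9 and 86.9 CPM under DMSO in shy2-2, and 255, 66.2 and 69.6 CPM under DEX and 29.99, 46.9 and 153.6 CPM under DMSO in slr-1. The part of these levels in the DEX difference of the overlapping members was not tested.

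**Figure D3:**
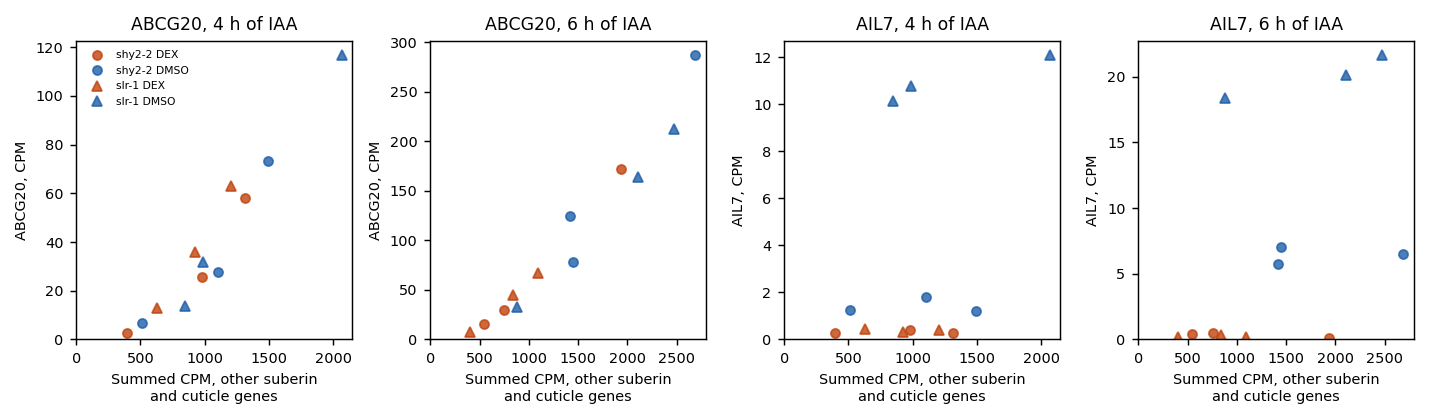
CPM of ABCG20 (left pair) and AIL7 (right pair) at 4 and 6 h against the summed CPM of 26 other suberin and cuticle genes, 1 point per library, with orange for DEX, blue for DMSO, circles for shy2-2 and triangles for slr-1. ABCG20 tends to be higher where the sum is higher under both treatments, and AIL7 is lower in every DEX library than in every DMSO library. The rule used the libraries of 6 h, and AIL7 and ABCG20 come from the separated and the overlapping members. The 6 h panels are thus a description, and the part of the sum in either gene was not tested.

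**Figure D4:**
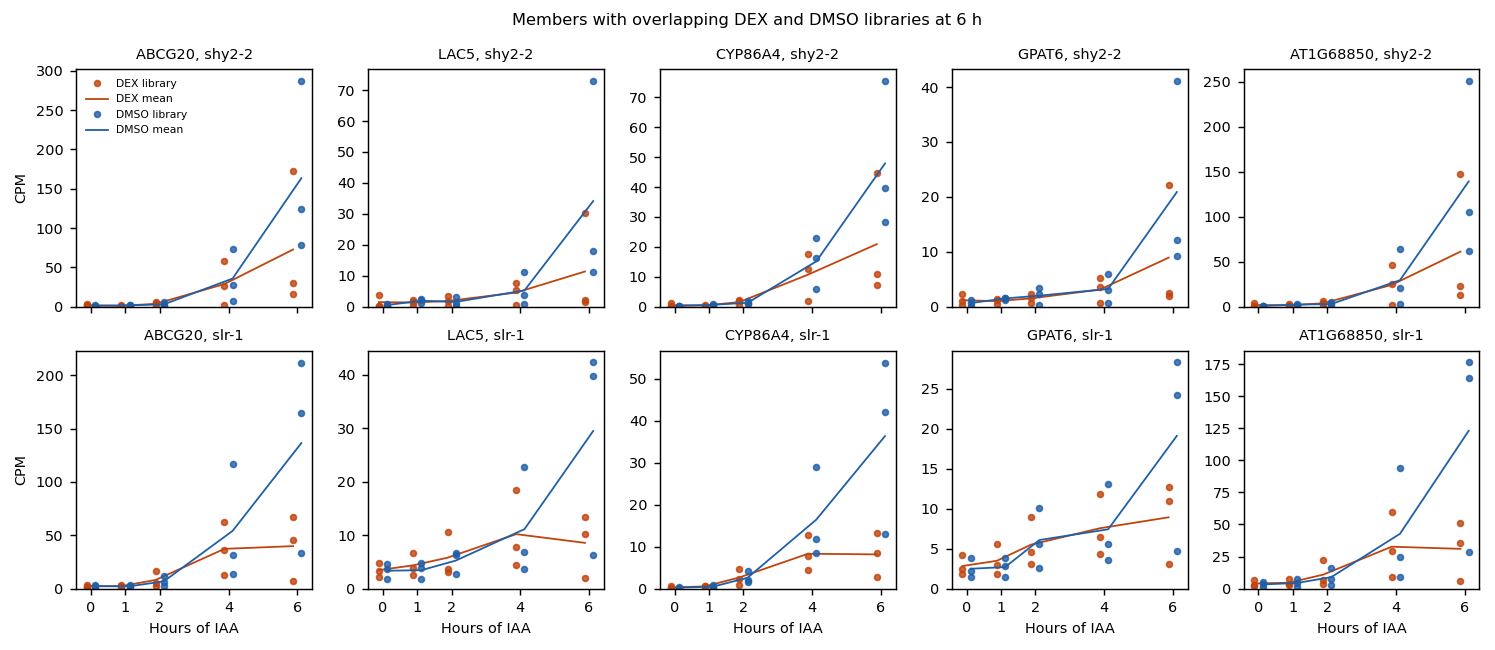
CPM over hours of IAA for 5 members of the suberin, cutin and lignin group with overlapping libraries at 6 h, shy2-2 above and slr-1 below, with orange DEX points and blue DMSO points for single libraries and lines through the means of 3. The 3 DMSO libraries at 6 h are spread widely in each panel, and at least 1 DEX library reaches into their range.

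The overlapping members were not confined to this group. They also held AT5G20860 (a pectin methylesterase inhibitor family protein), the glycosyl hydrolase AT5G55180, the hydroxyproline-rich proteins AT4G38080 and AT2G22510, the uncharacterised gene AT2G43390, the E6-like gene AT2G33850 and FTM1 (annotated as an acyl carrier protein desaturase). The 10 members with the smallest folds at 4 h, all of this kind, ranged from -0.38 to 0.28 in shy2-2 and from -0.24 to 0.16 in slr-1.

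The timing of the rise under DMSO was tested between 2 and 4 h, within 1 run per line. In shy2-2, 45 of the 79 members were higher at 4 h than at 2 h (median log2 fold 1.29), where 6.00% of all genes were higher. In slr-1, 63 were higher (median 1.28), where 13.3% of all genes were. The medians of all genes were 0.02 and -0.02. The rule asked for a rise between 1 and 6 h under DMSO, so a share above that of all genes follows in part from the choice. Of 152 other late-rising genes, described below, 86 in shy2-2 and 89 in slr-1 were higher at 4 h. Without the libraries high in photosynthesis RNA, which include 2 of the 3 DMSO libraries of 2 h in slr-1, 36 members of slr-1 were called. That leaves 1 library in the group, whose spread is then taken from the other groups. On the log2(mean CPM + 1) scale the change since 0 h was at least 1 in 15 members in shy2-2 and 27 in slr-1 at 2 h, and in 63 and 75 at 4 h. In slr-1 the DMSO libraries of 0 h came from another run than those of 2 and 4 h. RBK2 shows the delay: under DMSO it averaged 0.788 ± 0.171, 0.573 ± 0.013, 0.641 ± 0.120, 3.02 ± 0.74 and 11.8 ± 2.2 CPM at 0, 1, 2, 4 and 6 h in shy2-2 (SD, n = 3).

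Some members were lower under DEX already at 2 h, 5 in shy2-2 and 11 in slr-1, where 0.329% and 1.15% of all genes were lower, and none was higher. In shy2-2 the count was 3 without DEX replicate 1, DEX replicate 3 or DMSO replicate 3. Of the 3 DMSO libraries of 2 h in each line, 1 in shy2-2 and 2 in slr-1 were high in photosynthesis RNA. The members' medians at 2 h were -0.13 and -0.21. As at 4 h, the runs were shared with the libraries of 6 h, so these shares too follow in part from the choice. AT3G11150 had 3.398, 3.48 and 3.41 CPM under DEX and 10.4, 10.0 and 10.7 CPM under DMSO at 2 h in shy2-2, and 3.07, 3.46 and 3.13 CPM under DEX and 14.5, 16.2 and 14.7 CPM under DMSO in slr-1. Its folds were -1.61 ± 0.17 (adjusted p = 6.4e-06) and -2.23 ± 0.16 (adjusted p = 2.9e-09). Before IAA, after DEX or DMSO alone, it had 1.79, 1.98 and 1.83 CPM under DEX and 2.72, 3.38 and 2.78 CPM under DMSO in shy2-2, and 1.52, 1.96 and 1.45 CPM under DEX and 3.54, 3.38 and 2.41 CPM under DMSO in slr-1. Its groups were thus apart at 0 h in both lines, where treatment and run cannot be told apart either. PDLP8 had 2.33, 2.12 and 1.99 CPM under DEX and 4.77, 4.12 and 4.95 CPM under DMSO at 2 h in shy2-2, and 2.04, 1.57 and 2.11 CPM under DEX and 5.90, 7.29 and 5.58 CPM under DMSO in slr-1. CSDP1 (-0.70 ± 0.14 and -0.84 ± 0.12) and AT3G04650 (-0.62 ± 0.11 and -0.87 ± 0.14) were lower in both lines too. EXPA20 passed in shy2-2 (-0.71 ± 0.16, adjusted p = 0.039) and not in slr-1 (-0.53 ± 0.14, adjusted p = 0.064). AIL7 passed in slr-1, at -2.42 ± 0.31 (adjusted p = 4.4e-05), and stood at -0.76 ± 0.35 (adjusted p = 0.63) in shy2-2. AT2G15590 and AT5G17340 also passed in slr-1, and stood at -1.31 ± 0.35 (adjusted p = 0.11) and -0.79 ± 0.40 (adjusted p = 0.72) in shy2-2. In AIL7 and AT2G15590 every DEX library lay below every DMSO library at 2 h in shy2-2 as well, and the difference between the lines at 2 h was not tested.

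The step between 2 and 4 h was compared between treatments, a contrast in which run differences of equal size at both times cancel. The step was smaller under DEX in 5 members in shy2-2 (median of all members -0.70) and in 18 in slr-1 (median -0.87), where 0.0457% and 1.66% of all genes had a smaller step. The medians of all genes were -0.01 and 0.01. AT2G15590, RBK2 and EXL3 passed in both lines. For RBK2 the step was smaller by -1.72 ± 0.34 (adjusted p = 0.049) and -1.74 ± 0.44 (adjusted p = 0.036), and for EXL3 by -1.06 ± 0.21 (adjusted p = 0.049) and -1.13 ± 0.27 (adjusted p = 0.024). AT4G13710 came close in shy2-2 (-2.80 ± 0.56, adjusted p = 0.054) and passed in slr-1 (-2.12 ± 0.49, adjusted p = 0.022). All called members were among the 56. Without the libraries high in photosynthesis RNA 1 member in shy2-2 and 4 in slr-1 passed, with 1 DMSO library of 2 h left in slr-1. Leaving out single libraries gave 2 to 7 members in shy2-2, where each library other than DEX replicate 1 of 2 and 4 h and DMSO replicate 3 of 2 and 4 h lowered the count to 2 or 3. In slr-1 it gave 6 without DMSO replicate 1 of 2 h, 7 without DMSO replicate 1 of 4 h, 8 without DEX replicate 2 of 2 h and 9 without DEX replicate 3 of 4 h.

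DEX did not hold all members at their starting level. Between 0 and 4 h under DEX, 30 members in shy2-2 and 47 in slr-1 were higher at 4 h, where 15.1% and 17.8% of all genes were. The members' medians were 0.75 and 1.23 (1.18 with members at no counts set to their bounds), and 1 member in shy2-2 and 2 in slr-1 were lower at 4 h. The slr-1 libraries of these 2 times came from different runs, and without those high in photosynthesis RNA 22 members of slr-1 were higher. Here too 1 library of 0 h is left and is assumed to vary like the other groups. HLS1 is an example of a reduced rise: it was higher at 4 h than at 0 h under DEX by 1.49 ± 0.21 (adjusted p = 8.1e-06) in shy2-2 and 1.93 ± 0.27 (adjusted p = 5.8e-06) in slr-1, yet lower under DEX than under DMSO at 4 h by -1.13 ± 0.20 and -1.44 ± 0.25. CYCD3;1, ETT, AAC2, TOM20-1, RABA5b and AT4G36120 likewise rose under DEX in both lines. EXL3, EXL5, UPP and AT4G03292 were called in neither line.

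As a description at 6 h, the change since 0 h under DEX was below 0.5 in 36 members in shy2-2 and 33 in slr-1, and in 29 of them in both lines, all among the 56. It was 1.5 or more in 24 and 20. For the 56 the median change under DEX was 0.30 in shy2-2 and 0.49 in slr-1, and for the 23 it was 2.48 and 1.49. Under DMSO the median change was 2.147 and 2.375 for the 56, and 3.75 and 3.105 for the 23. The 23 thus rose more under both treatments. In slr-1 the libraries of 0 and 6 h came from different runs under each treatment.

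**Figure D5:**
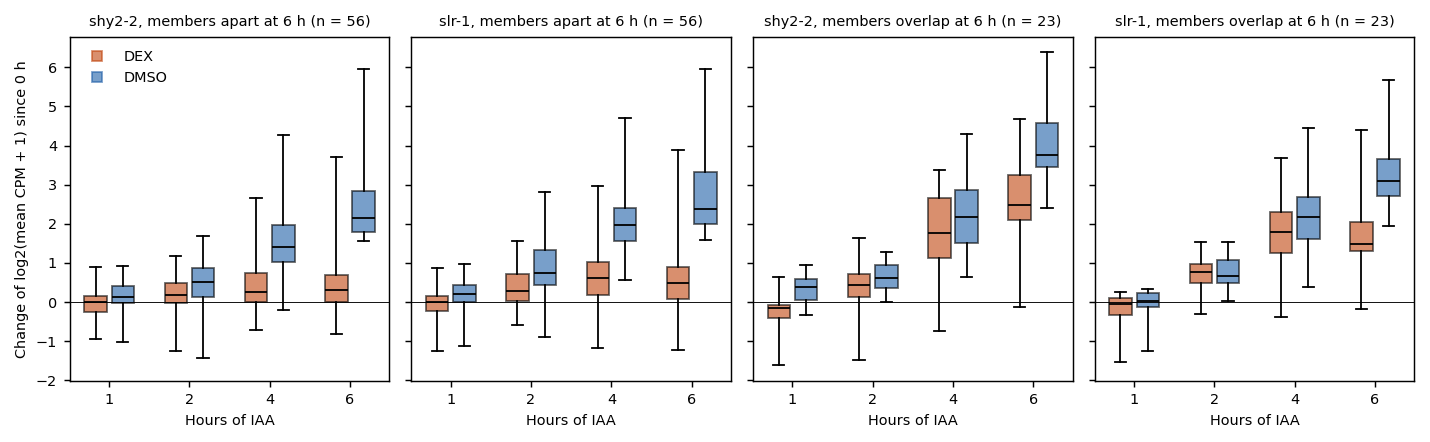
Change of log2(mean CPM + 1) since 0 h at 1, 2, 4 and 6 h of IAA, for the 56 members with libraries apart at 6 h (2 left panels) and the 23 others (2 right panels), in each line. Boxes give the quartiles over members, the line the median and the whiskers the whole range, with DEX in orange left of DMSO in blue. At 6 h the DEX medians are 0.30 and 0.49 on the left and 2.48 and 1.49 on the right. The DMSO medians are 2.147 and 2.375 on the left and 3.75 and 3.105 on the right. The rule used the DMSO values of 0, 1 and 6 h and the DEX values of 6 h.

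The response to DEX at 4 h was compared between the lines in a fit of all 60 libraries, as the slr-1 fold minus the shy2-2 fold. AIL7 was the 1 member that differed, by -2.76 ± 0.43 (adjusted p = 0.00017), while 0.0314% of all tested genes had a called negative difference and 0.112% a called positive one. AIL7 was below 0.5 CPM under DEX in both lines at 4 h, while under DMSO it had 11 ± 1.0 CPM in slr-1 and 1.42 ± 0.34 CPM in shy2-2 (SD, n = 3). The formin AT3G05470 was next, at -2.27 ± 0.53 (adjusted p = 0.059). It had 0.888, 1.85 and 1.04 CPM under DEX and 11.8, 4.81 and 6.84 CPM under DMSO in slr-1, and 0.854, 1.80 and 0.904 CPM under DEX and 1.83, 2.19 and 0.798 CPM under DMSO in shy2-2. At 6 h AT3G05470 was apart in both lines. At 4 h the count of members whose DEX difference differed between the lines was 2 without DEX replicate 2 of slr-1, and it was 3 without DMSO replicate 2 of slr-1, DEX replicate 3 of shy2-2 or DMSO replicate 2 of shy2-2. In this fit the difference was negative in 60 of the 79 members, at a median of -0.24, while the median of all genes was -0.03. The 4 groups compared came from 4 runs, so line and run cannot be told apart.

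Other genes of the same processes were counted in lists that had been drawn up with earlier results of these data known. Of all tested genes 8.38% in shy2-2 and 12% in slr-1 were lower under DEX at 4 h, and 2.47% and 5.83% were higher, and the lists' counts are to be read against these shares. At 4 h, 15 of 33 genes of lateral root initiation in shy2-2 and 22 of 33 in slr-1 were lower under DEX and none was higher, with medians of -0.74 and -0.92. AIL7 and MYB88 are on this list, and GATA23, LBD16 (a LOB-domain factor that acts before the first founder cell division) and FLP were lower in both lines too, FLP by -3.16 ± 0.13 in shy2-2 and -3.14 ± 0.16 in slr-1 on the log2 scale. For genes of DNA replication the counts were 12 and 16 of 24, with CYCD3;1 on the list and medians of -0.66 and -0.87. For cell separation over the primordium, with PGAZAT on the list, 4 of 19 in shy2-2 and 6 of 18 in slr-1 were lower and 1 and 2 were higher. For suberin and cuticle, with GPAT6 and CYP86A4, 0 and 1 of 23 were lower and none was higher. Mitosis and division planes had 1 and 4 of 25 genes lower and none higher (medians -0.24 and -0.22), and root meristem and stem cells 0 and 2 of 18 lower and 0 and 2 higher. Auxin synthesis and transport had 6 of 25 lower in each line, and 4 and 2 higher. Cytokinin response and turnover had 5 and 6 of 30 lower, and 0 and 2 higher. For organ boundary and SHI family genes 1 of 10 and 4 of 9 were lower, and for gibberellin 0 of 12 and 0 of 13, with 0 and 1 higher.

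Markers of other cell types were counted in the same way. No gene of 10 for endodermis, 8 for root hair or 8 for xylem was called in either line. For phloem 0 and 1 of 6 were lower, and for shoot identity 0 and 1 of 7 were higher, at medians of 3.08 in shy2-2 and 1.81 in slr-1. The larger shoot identity folds had large errors, such as 3.08 ± 1.83 for YAB2 in shy2-2. The summed level of the 9 listed shoot identity genes at 4 h was 47.32 to 63.53 CPM under DEX and 43.23 to 50.26 CPM under DMSO in shy2-2. In slr-1 it was 49.2 to 51.95 CPM under DEX and 38.47 to 49.89 CPM under DMSO. No gene of 13 for photosynthesis was called, at medians of 1.96 and 2.02. The summed level of these 13 at 4 h was 698.2, 237.8 and 2319 CPM under DEX and 178.3, 303.2 and 370.4 CPM under DMSO in shy2-2, and 257.3, 164.3 and 690.2 CPM under DEX and 100.8, 143.5 and 140.6 CPM under DMSO in slr-1. In slr-1 every DEX library was thus higher in photosynthesis RNA than every DMSO library, and the part of this in the members' differences was not tested.

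The members were set beside 152 other genes that met the late-rise conditions in both lines but not the DEX condition in both. At 4 h, 20 of these in shy2-2 and 33 in slr-1 were lower under DEX, with medians of -0.27 and -0.34, against 39 and 53 of the 79 members. At 2 h 0 and 1 of them were lower, against 5 and 11 members. The DEX difference at 6 h parted these 2 sets. In each line the DEX libraries of 2, 4 and 6 h shared a run, as did the DMSO libraries of those times. A gap between the sets at 4 and 2 h thus follows in part from the choice, and nothing is read from it. The rise from 2 to 4 h under DMSO was called in 86 and 89 of the 152. The element TGTCTC stood in 15.2% of their promoters and in 15.4% of the members'.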

How the data were processed

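The authors deposited raw gene counts for each of the 60 libraries. The submitters' processing notes name STAR 2.5.2b, DESeq2 and the TAIR10 build. Of each file the fourth column was taken, which held 93.6 to 96.4% of the counts of both strands. Rows that name no gene, 5.58 to 11.9% of all counts, were left out. Of 32833 genes 32548 matched RefSeq's TAIR10.1 gene table, the source of names, coordinates and promoters. CPM were computed from gene totals. The members and lists were chosen with earlier results of these data known, and the role groups and the split at 6 h with their values seen.

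Each line was fitted alone (30 libraries, 10 groups, 20 residual degrees of freedom) in edgeR 4.0.16 with filterByExpr, TMM factors (0.945 to 1.049) and the robust quasi-likelihood test, Benjamini-Hochberg adjusted over 21902 genes in shy2-2 and 21864 in slr-1. All 60 libraries (22268 genes, 40 residual degrees of freedom) were fitted for the difference between lines. The script was tested on simulated data. The labels number replicates 1 to 3 without stating separate cultures, so a p-value reflects only how far the samples differ, possibly for technical reasons. No replicate pair agreed within sampling noise (chi-square per degree of freedom 14.9 to 119). Standard errors are the log2 fold over the square root of the F value.

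Members were named where they led the rule's own order, the change of the 2 to 4 h step, the smallest or largest folds at 4 h or between lines, the levels within a role class, the gene lists or the edges of the rule. Other members named (EXPA20, EXL5, TBL36, PDLP8, HLS1, CSDP1, RABA5b, AT3G11150, AT3G07540, TOM20-1, AT1G04680, AT1G30760, AT1G30860, ERF9, AT2G33850, FTM1) were chosen after their values were seen.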

Additional observations from a re-analysis of the deposited data

Results flagged for a closer look

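The response of AIL7 to DEX at 4 h differed between the lines by a test of the difference itself, with a log2 fold in slr-1 minus that in shy2-2 of -2.76 ± 0.43 (SE, adjusted p = 0.00017, edgeR's quasi-likelihood test with Benjamini-Hochberg adjustment over 22268 genes). All 3 DEX libraries of each line were below 0.5 CPM, while the DMSO libraries held 12.1, 10.2 and 10.8 CPM in slr-1 and 1.80, 1.19 and 1.26 CPM in shy2-2. AIL7 was called under each alternative run for this difference, at -2.61 to -2.96. The libraries of both lines came from different runs at 4 h, and the part of the runs in this difference was not tested.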

How the results depend on the processing

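Of 93 alternative values computed for the counts of members, other than those that leave out 1 replicate, 81 stayed within 1.5 times the count reported. Both numbers include separate 4 h counts of the separated and of the overlapping members. The former repeat the 4 h counts of all members, and the latter were 0 throughout. Neither adds to what the other values show of stability, so the share of 81 in 93 is too favourable. DEX against DMSO at 4 h stayed within that bound throughout. At 2 h in shy2-2 the count was 1 (5 reported) when only the groups compared were fitted. For the smaller step under DEX in shy2-2 (5 reported) the count was 3 with DESeq2's size factors, 3 without the count filter, 1 without the libraries high in photosynthesis RNA, 12 with DESeq2's test and 0 with only the groups compared. In slr-1 it was 4 (18 reported) without the photosynthesis-high libraries. The rise under DEX in shy2-2 was called in 17 members (30 reported) with only the groups compared. Without the photosynthesis-high libraries the rise from 2 to 4 h under DMSO in slr-1 was called in 36 (63 reported) and the rise under DEX in 22 (47 reported). The difference between lines was called in 3 members with the replicate block and in 3 with DESeq2. The cause was not tested.

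Leaving out each replicate in turn gave 32 to 41 and 43 to 53 members lower at 4 h in shy2-2 and slr-1, 3 to 5 and 9 to 14 lower at 2 h, 32 to 50 and 49 to 64 higher at 4 h than at 2 h under DMSO, 2 to 7 and 6 to 23 with a smaller step, 20 to 37 and 33 to 44 with a rise under DEX, and 1 to 3 differing between lines. Of the 23 overlapping members 0 were called in either line under each alternative, which says nothing of stability, since they were set apart by overlap and have large errors.

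Added after seeing the data, leaving out each of the 24 libraries of the rule gave 50 to 126 genes, with 39 members kept each time, all of them among the 56. Group medians in place of means gave 113 genes with 71 of the members. Replicate numbers did not pair the samples of the groups tested: 11 of 30 same-numbered pairs in shy2-2 and 17 of 30 in slr-1 correlated above 0.1. In each line, a library correlated best with its own number in 10 of 30 comparisons with another group. The replicate block moved no other count by over 1.5 times. Members low in counts, such as UMAMIT15 with 2 and 1 DEX counts at 4 h, give no measured fold.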
